A study of Caenorhabditis elegans with 11 samples.

Results

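The quantity described here is the difference between 2 changes, the change that *xpo-1* RNAi made in polysome RNA minus the change it made in total RNA. It is written as a log2 value for each gene. A negative value says that *xpo-1* RNAi moved the transcript lower in polysome RNA than in total RNA, and a positive value says the opposite. It used 8 of the 11 libraries of the series, which were 2 polysome libraries from *xpo-1* RNAi animals, 2 polysome libraries from control animals, 2 total RNA libraries from *xpo-1* RNAi animals and 2 total RNA libraries from control animals. Of 46756 genes in the count tables, 14900 had at least 10 counts in at least 2 of these libraries and were given a value. Genes were then read in families, as 57 lists of related genes and 195 classes of at least 8 tested genes that share a name stem.

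The animals were wild-type *Caenorhabditis elegans* of the N2 Bristol strain. From day 1 of adulthood they were kept at 20°C on *Escherichia coli* HT115 that made double-stranded RNA against *xpo-1*, or on HT115 with the empty vector L4440 as control, and were collected after 96 h, on day 5. Part of each lysate was kept as total RNA, and a sucrose gradient separated the rest by the number of ribosomes on a transcript, after which polyadenylated RNA was sequenced. Whole adults were used, so each library pooled many animals with all their tissues, the germline and the embryos they held.

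*xpo-1* encodes exportin 1 (also called CRM1), the receptor that carries cargo with a leucine-rich export signal, and the ribosomal subunits made in the nucleolus, through the nuclear pore. Polysome RNA holds the transcripts that carry several ribosomes, so a ratio of polysome to total RNA describes how much of a transcript was in that pool. Transcripts of the translation apparatus are a well-known case of shared control at this step, and transcripts with a short coding region have room for few ribosomes. Levels are given as CPM, counts scaled to the size of the library, so they describe the make-up of each library and not the amount of ribosome-bound RNA in the animal.

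The *xpo-1* transcript itself stood at 21.7 and 21.7 CPM in *xpo-1* RNAi polysome libraries, against 198 and 125 CPM in control polysome libraries. In total RNA it stood at 36.5 and 38.3 CPM in *xpo-1* RNAi, against 313 and 254 CPM in control. The silenced libraries did not overlap the control libraries in either kind of RNA. Library totals lay between 15589628 and 21828657 counts. Markers of muscle, intestine, germline, neurons and epidermis were found in all 8 libraries. The summed level of 3 sperm markers (*msp-19*, *spe-9* and *gsp-3*) was 1.35 and 1.08 CPM in *xpo-1* RNAi polysome libraries, against 45.9 and 234 CPM in control polysome libraries. In control libraries this sum was thus several times higher in replicate 2 than in replicate 1, also in total RNA (105.3 CPM in replicate 2 and 23.8 CPM in replicate 1). Nearly all of the control sums came from *msp-19* and *gsp-3*. The rare *spe-9* overlapped between treatments in both kinds of RNA. It had 0.45 and 0.54 CPM in *xpo-1* RNAi polysome libraries and 0.35 and 1.19 CPM in control polysome libraries. The epidermal markers *dpy-7*, *col-19* and *rol-6* summed to 254 and 226 CPM in *xpo-1* RNAi polysome libraries, against 1052 and 1413 CPM in control polysome libraries. In total RNA the epidermal markers summed to 433 and 412 CPM in *xpo-1* RNAi, against 1320 and 2066 CPM in control. The muscle markers summed to 866 CPM in control total replicate 1 and 1630 CPM in replicate 2. The summed intestine, germline and neuron markers were slightly lower in control total replicate 2 (8121, 2191 and 300 CPM) than in replicate 1 (8873, 2315 and 335 CPM). The intestine and neuron sums were nearly all *vit-2* and *snb-1*, and single markers went both ways. *ges-1*, *elt-2*, *rab-3*, *unc-13* and the germline marker *glh-1* were higher in replicate 2, whereas *vit-2*, *snb-1*, *pgl-1* and *gld-1* were lower. In whole-animal RNA, fewer cells of a type and less RNA per cell cannot be told apart.

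With the count filter and scaling used here, no single gene passed the test of the difference. The quasi-likelihood test of edgeR called 0 of 14900 genes (0%) by the 2 criteria of an adjusted p below 0.05 and a difference of more than 1.5-fold, and the smallest adjusted p was 0.0972. An unadjusted p under 0.05 was reached by 2406 genes (16.1%), of which 1161 had a positive value (7.79%) and 1245 a negative one (8.36%). Limma-voom called 0 genes, and DESeq2 called 282 with a higher (3.97%) and 383 with a lower value (5.39%) among the 7100 genes it gave an adjusted p. The count of 0 also depended on the count filter and on 1 control library. Without the filter edgeR called 275 genes with a higher (1.21%) and 301 with a lower value (1.32%), and with at least 10 counts in every library 303 with a higher (2.7%) and 120 with a lower value (1.07%). Without control polysome replicate 1 edgeR called 458 genes with a higher (3.09%) and 264 with a lower value (1.78%), whereas the other 7 omissions gave 0 or 1 call. Values are therefore given below as descriptions of these libraries, and no gene is said to have changed in this comparison. The same caution holds for the families, which were not tested.

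Across all genes the median value was 0.02, with quartiles of -0.45 and 0.43. Family medians below are given relative to this median, while values of single genes are given as fitted. As a check that needs no model, the 4 ratios of polysome to total CPM that can be formed from the *xpo-1* RNAi libraries were set against the 4 from control libraries. For 2447 genes (16.4%) every *xpo-1* RNAi ratio lay above every control ratio, and for 2307 genes (15.5%) every *xpo-1* RNAi ratio lay below. Such genes are called separated, and these shares are the background for their counts in each family. Values of rare transcripts spread widely at the edge of the count filter. Relative to all genes their quartiles were -1.21 and 0.60 for the 678 genes just inside it (exactly 2 libraries with at least 10 counts) and -1.36 and 0.85 for 724 genes just outside it (exactly 1 such library), in a fit without the filter. With each library left out in turn, 37 of the 57 lists kept their side of the median of all genes in all 8 fits.

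**Figure D1:**
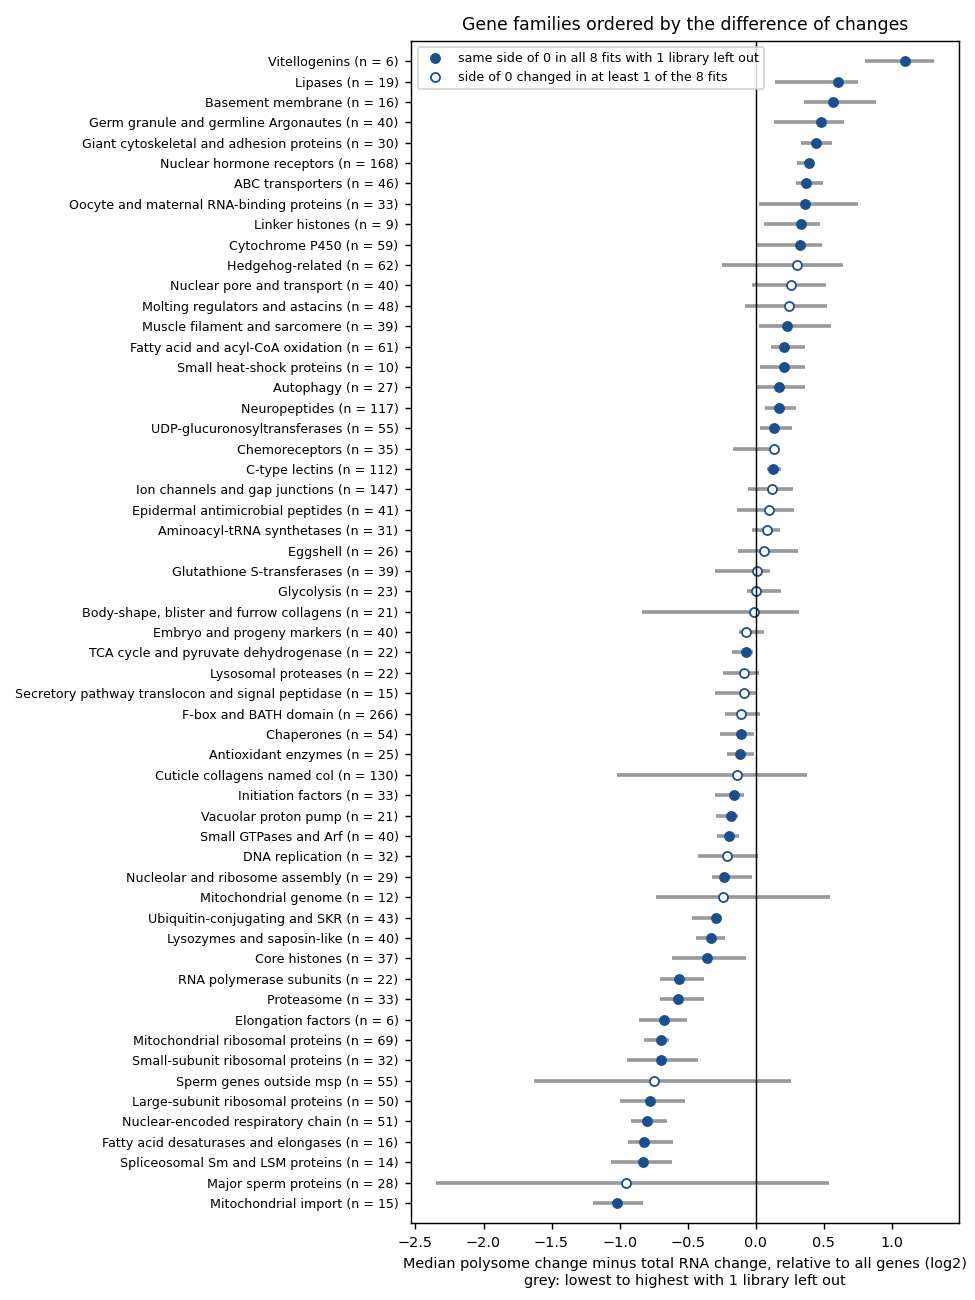
Median of the polysome change minus the total RNA change for 57 gene lists, relative to the median of all 14900 genes (log2, horizontal axis), with the number of genes tested; grey lines run from the lowest to the highest median with 1 of the 8 libraries left out. Filled points (37 lists) kept their side of 0 in all 8 fits; vitellogenins (1.10) lie at the top and mitochondrial import (-1.02) at the bottom, and the grey line of the major sperm proteins crosses 0.

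Cytosolic ribosomal proteins were among the families at the low end of the ranking. All 50 large-subunit ribosomal protein genes were tested, and all 50 lay below the median of all genes, with a family median of -0.77 (lowest -0.99 without *xpo-1* RNAi total replicate 2, highest -0.52 without *xpo-1* RNAi total replicate 1). In 38 of the 50 every *xpo-1* RNAi ratio was below every control ratio, against the background of 15.5%. The 32 small-subunit genes had a median of -0.69 (-0.95 to -0.43), and 31 of 32 had separated ratios, all lower in *xpo-1* RNAi. The family was lower in *xpo-1* RNAi in both kinds of RNA, and further so in polysome RNA. Relative to all genes the large-subunit median was -1.77 in polysome RNA and -0.96 in total RNA, and the small-subunit median was -1.75 in polysome RNA and -1.02 in total RNA. Together the large-subunit genes took 5.25% and 5.42% of counts in *xpo-1* RNAi polysome libraries, against 12.7% and 13.5% in control polysome libraries. In total RNA they took 7.20% and 5.91% in *xpo-1* RNAi, against 10.1% and 11.1% in control. These transcripts thus took a smaller share of polysome RNA than of total RNA in *xpo-1* RNAi animals, and a larger share of polysome RNA in control animals.

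Single members ran from near 0 to -1.99. *rpl-38*, the member with the lowest value (chromosome V, 15512166 to 15512780 of WBcel235), stood at 375 and 388 CPM in *xpo-1* RNAi polysome libraries, against 2925 and 3431 CPM in control polysome libraries. In total RNA it stood at 1036 and 723 CPM in *xpo-1* RNAi, against 1743 and 1955 CPM in control. The groups did not overlap in either kind of RNA, and the gap was wider in polysome RNA (value -1.99 ± 0.29 (SE), edgeR adjusted p = 0.0972), although exons of *lgc-31* overlap this gene and the use of strand in counting was not stated. *rla-1*, which encodes an acidic stalk protein of the large subunit, had 393 and 431 CPM in *xpo-1* RNAi polysome libraries, against 2841 and 3126 CPM in control polysome libraries. Its total RNA levels were 1707 and 1187 CPM in *xpo-1* RNAi, against 2571 and 2783 CPM in control, which gave a value of -1.97 ± 0.28 (SE). *rps-12*, a small-subunit gene, showed the same order of groups, with 302 and 321 CPM in *xpo-1* RNAi polysome libraries against 2136 and 2151 CPM in control polysome libraries. In total RNA *rps-12* had 1790 and 1224 CPM in *xpo-1* RNAi, against 3219 and 3451 CPM in control.

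Among the abundant members, *rps-5*, *rps-2* and *rla-0* had values of -0.75, -0.60 and -1.20, and all 3 had separated ratios. *rpl-4* was an exception within the family. It had 2481 and 2771 CPM in *xpo-1* RNAi polysome libraries, against 4811 and 3933 CPM in control polysome libraries, and 4158 and 3171 CPM in *xpo-1* RNAi total RNA, against 5333 and 6032 CPM in control total RNA. The lower level in *xpo-1* RNAi was thus of like size in both kinds of RNA (value -0.10 ± 0.28 (SE)), and its ratios overlapped between treatments. Exons of *lmd-2* overlap *rpl-4*.

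Other parts of the translation machinery were less uniform. Of the 6 elongation factor genes 5 lay below the median of all genes, with a family median of -0.67 (-0.85 to -0.50). *eef-1B.1*, a subunit of the exchange factor that recharges eEF1A with GTP, had 281 and 327 CPM in *xpo-1* RNAi polysome libraries, against 1855 and 2109 CPM in control polysome libraries. In total RNA it had 1143 and 946 CPM in *xpo-1* RNAi, against 2371 and 2291 CPM in control (value -1.55 ± 0.25 (SE)). *eef-1B.2*, of the same exchange factor, had a value of -1.25. The 33 initiation factor genes were near the other genes, with a median of -0.16, and the 31 aminoacyl-tRNA synthetase genes, which charge transfer RNAs, had a median of 0.08. Nucleolar and ribosome assembly genes (29 tested) had a median of -0.23. Among them *fib-1*, which encodes the nucleolar methyltransferase fibrillarin, had a polysome change of -1.64 and a total RNA change of -1.22, hence a value of -0.41 ± 0.25 (SE).

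**Figure D2:**
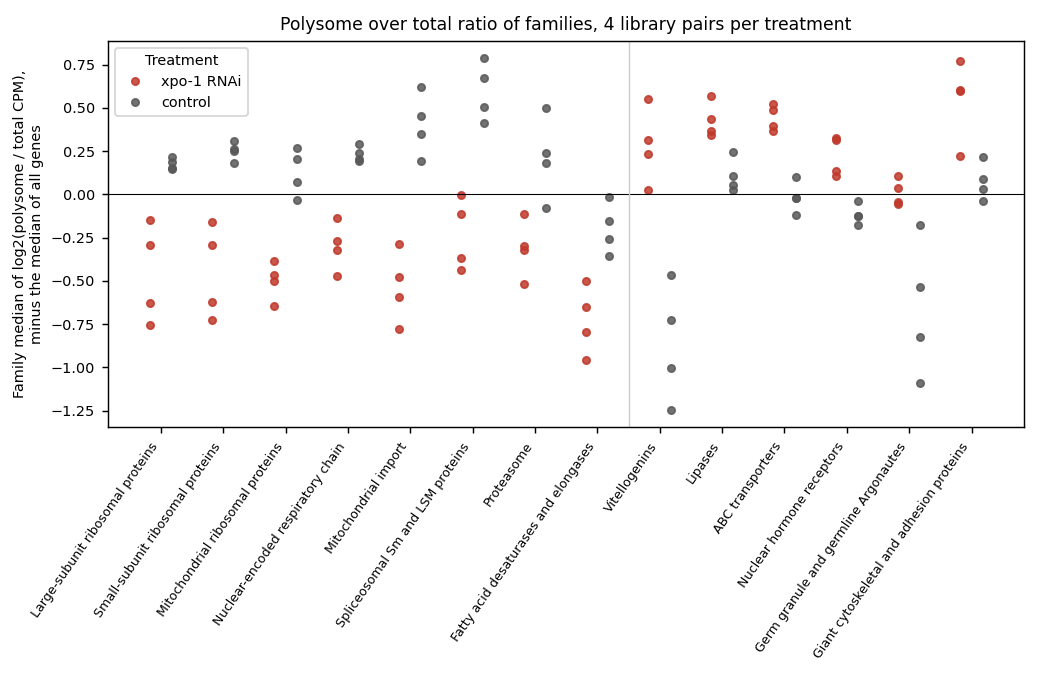
Family median of the log2 ratio of polysome to total CPM, minus the median of all genes in the same library pair (vertical axis), for 14 gene lists; each treatment has 4 points, 1 for each pairing of its polysome with its total RNA libraries, *xpo-1* RNAi left and control right. The 14 were picked from the lists without overlap between treatments. Of all 57 lists, 13 had every *xpo-1* RNAi point lower, 8 had every point higher and 36 overlapped. In the 8 lists on the left all *xpo-1* RNAi points lie below all control points, and in the 6 on the right they lie above. Ribosomal proteins of the large subunit lie at -0.75 to -0.15 in *xpo-1* RNAi and 0.15 to 0.22 in control.

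Genes for mitochondrial proteins made in the cytosol stood beside the ribosomal proteins at the low end. The mitochondrial import list, the inner and outer membrane translocases and their small chaperones, had the lowest median of all lists, -1.02 (-1.20 to -0.83). Of its 15 genes, 14 lay below the median of all genes and 11 had separated ratios. The 69 genes for proteins of the mitochondrial ribosome had a median of -0.69 (-0.82 to -0.64), the narrowest range of the large low families, and 58 of 69 had separated ratios. The 51 nuclear genes of the respiratory chain had a median of -0.80 (-0.91 to -0.65), with 34 separated toward lower and 2 toward higher. All 8 genes of the *ndub* class, subunits of respiratory complex I, had separated ratios, and their median was -1.14 (-1.26 to -0.99).

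*mrpl-18*, of the mitochondrial large subunit, had 29.4 and 29.5 CPM in *xpo-1* RNAi polysome libraries, against 51.2 and 59.3 CPM in control polysome libraries. In total RNA the order was turned round, with 100.1 and 93.0 CPM in *xpo-1* RNAi, against 70.7 and 59.2 CPM in control. Its value was -1.48 ± 0.24 (SE). *tin-9.1*, a small chaperone of the space between the mitochondrial membranes, had 20.1 and 22.3 CPM in *xpo-1* RNAi polysome libraries, against 78.2 and 96.0 CPM in control polysome libraries. Its total RNA levels were 38.5 and 29.6 CPM in *xpo-1* RNAi, against 56.4 and 52.4 CPM in control (value -1.36 ± 0.27 (SE)). *timm-23*, the channel of the inner membrane translocase, had a value of -1.01, and *cox-19*, which helps assemble cytochrome c oxidase, a value of -1.48. *cyc-2.1*, cytochrome c, had a value of -1.49, but exons of *rpl-20* overlap it. The tricarboxylic acid cycle and pyruvate dehydrogenase list, enzymes of the mitochondrial matrix, had a median of -0.07 over 22 genes. The 12 protein genes of the mitochondrial genome, which are translated inside the organelle, had a median of -0.24 that ran from -0.74 to 0.55 with 1 library left out.

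Small subunits of RNA-handling complexes formed a further group. All 14 genes for Sm and LSM proteins, the rings that bind uridine-rich tracts of spliceosomal and decay RNAs, had separated ratios toward lower in *xpo-1* RNAi, with a median of -0.83 (-1.06 to -0.62). *lsm-3* had 31.3 and 33.0 CPM in *xpo-1* RNAi polysome libraries, against 87.3 and 98.7 CPM in control polysome libraries, while in total RNA it had 57.8 and 42.9 CPM in *xpo-1* RNAi and 55.1 and 53.1 CPM in control. The groups overlapped in total RNA and not in polysome RNA (value -1.43 ± 0.26 (SE)). Exons of *Y62E10A.13* overlap this gene. *snr-1*, an Sm protein, had a value of -0.72. RNA polymerase subunits (22 genes) had a median of -0.56 (-0.70 to -0.38) and spread widely. *rpb-12*, a small subunit shared by the nuclear polymerases, had 37.6 and 44.6 CPM in *xpo-1* RNAi polysome libraries, against 150.4 and 195 CPM in control polysome libraries, and 130 and 94.2 CPM in *xpo-1* RNAi total RNA, against 162 and 149.6 CPM in control total RNA. *ama-1*, the largest subunit of RNA polymerase II, had 239 and 234 CPM in *xpo-1* RNAi polysome libraries, against 156 and 99.3 CPM in control polysome libraries, and 255 and 270 CPM in *xpo-1* RNAi total RNA, against 293 and 276 CPM in control total RNA. The 2 subunits lay at opposite ends, with values of -1.60 ± 0.29 (SE) for *rpb-12* and 1.01 ± 0.29 (SE) for *ama-1*, and their coding regions are 186 and 5568 nucleotides long.

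Genes of protein degradation by the proteasome were low as well. The 33 proteasome genes had a median of -0.57 (-0.70 to -0.38), and 19 had separated ratios toward lower and 2 toward higher. Here the 2 kinds of RNA differed in direction relative to all genes, with medians of -0.45 in polysome RNA and 0.13 in total RNA. *pas-7*, a ring subunit of the 20S core, had 219 and 256 CPM in *xpo-1* RNAi polysome libraries, against 550 and 505 CPM in control polysome libraries. Its total RNA levels were 424 and 340 CPM in *xpo-1* RNAi, against 362 and 300.5 CPM in control, which overlap (value -1.35 ± 0.26 (SE)), and exons of *lact-2* overlap the gene. Ubiquitin-conjugating enzymes and Skp1-related genes (43 tested) had a median of -0.29 (-0.47 to -0.26). *rbx-1*, the RING subunit of cullin ligases, had 189 and 215 CPM in *xpo-1* RNAi polysome libraries, against 397 and 417 CPM in control polysome libraries, but 592 and 477 CPM in *xpo-1* RNAi total RNA, against 424 and 388 CPM in control total RNA. It was thus lower in every *xpo-1* RNAi polysome library and higher in every *xpo-1* RNAi total library (value -1.41 ± 0.24 (SE)). *smo-1*, the ubiquitin-like modifier SUMO, had a value of -1.08, with exons of *K12C11.1* overlapping it.

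Fatty acid desaturases and elongases were the metabolic family at the low end. Of 16 genes 13 lay below the median of all genes, with a median of -0.82 (-0.94 to -0.61), and 8 had separated ratios toward lower. *fat-2*, the enzyme that turns oleic into linoleic acid, had 152 and 154 CPM in *xpo-1* RNAi polysome libraries, against 109.6 and 147 CPM in control polysome libraries. In total RNA it had 1227 and 1277 CPM in *xpo-1* RNAi, against 606 and 544 CPM in control. The difference between treatments was thus larger in total RNA than in polysome RNA, and the value was -0.87 ± 0.25 (SE). *elo-1*, which lengthens polyunsaturated fatty acids, had 108 and 128 CPM in *xpo-1* RNAi polysome libraries, against 208 and 295 CPM in control polysome libraries, and 317 and 315 CPM in *xpo-1* RNAi total RNA, against 260.1 and 314 CPM in control total RNA (value -1.23 ± 0.29 (SE)). *fat-1*, the omega-3 desaturase, had a value of -0.72. Lysozymes and saposin-like proteins, secreted proteins of the gut that act on microbes (40 tested), had a median of -0.33 (-0.44 to -0.23), with *spp-17* at -1.55 and *spp-5* at -0.82.

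**Figure D3:**
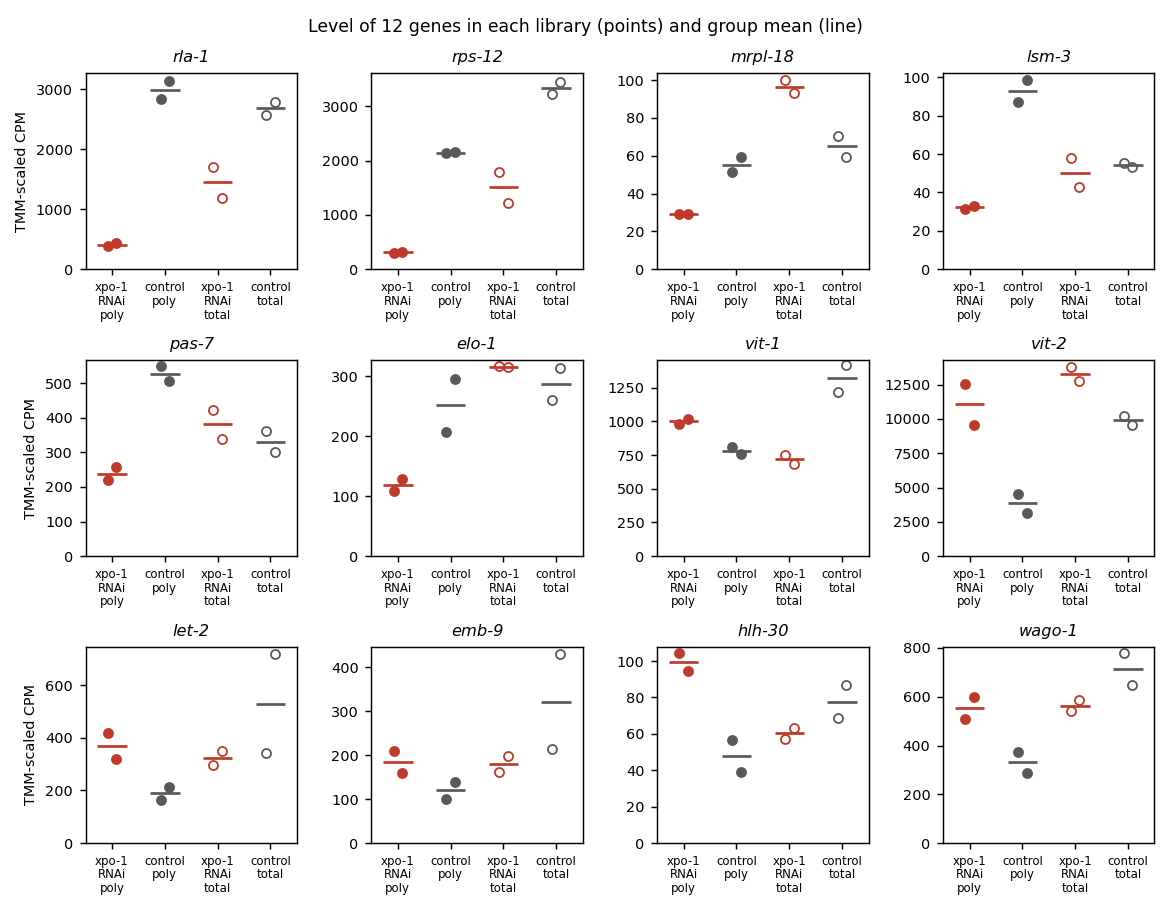
TMM-scaled CPM (vertical axes from 0) of 12 genes in each of the 8 libraries, with points for single libraries, filled for polysome RNA and open for total RNA, and a line for the mean of 2; *xpo-1* RNAi is red and left of control in grey. In *rla-1* to *elo-1* the *xpo-1* RNAi polysome points lie below the control polysome points, and in *vit-1* to *wago-1* they lie above, for example 983 and 1014 CPM against 807 and 759 CPM for *vit-1*.

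Vitellogenins stood alone at the high end. These yolk proteins are made in the intestine, secreted, and taken up by oocytes. All 6 genes had ratios that were higher in *xpo-1* RNAi with no overlap, against the background of 16.4%, and the family median was 1.10 (0.80 without control polysome replicate 2 to 1.31 without control polysome replicate 1). The 6 values lay between 0.87 and 1.23. *vit-2* (chromosome X, 5101032 to 5106173) had 12580 and 9534 CPM in *xpo-1* RNAi polysome libraries, against 4510 and 3176 CPM in control polysome libraries. In total RNA it had 13760 and 12730 CPM in *xpo-1* RNAi, against 10240 and 9546 CPM in control, so the groups were apart in both kinds of RNA and further apart in polysome RNA (value 1.10 ± 0.31 (SE)). *vit-6* was similar, with 10640 and 9405 CPM in *xpo-1* RNAi polysome libraries, against 4264 and 3211 CPM in control polysome libraries (value 1.20 ± 0.27 (SE)). *vit-1* differed in total RNA, where it had 753 and 684 CPM in *xpo-1* RNAi, against 1220 and 1417 CPM in control. Since *vit-1* had 983 and 1014 CPM in *xpo-1* RNAi polysome libraries, against 807 and 759 CPM in control polysome libraries, it was higher in the polysome libraries of *xpo-1* RNAi and lower in the total RNA libraries (value 1.23 ± 0.23 (SE)). The 3 intestine markers (*vit-2*, *ges-1* and *elt-2*), per total counts of each library, summed to 15480 and 11320 CPM in *xpo-1* RNAi polysome libraries, against 4204 and 3089 CPM in control polysome libraries, and to 13550 and 13930 CPM in *xpo-1* RNAi total RNA, against 8873 and 8121 CPM in control total RNA, nearly all of it *vit-2*. On the same scale *ges-1*, a gut esterase, had 109 and 108 CPM in *xpo-1* RNAi polysome libraries, against 21.9 and 23.8 CPM in control polysome libraries, and 35.4 and 45 CPM in *xpo-1* RNAi total RNA, against 14.6 and 15.99 CPM in control total RNA. *elt-2*, a transcription factor of the intestine, had 23.2 and 20.9 CPM in *xpo-1* RNAi polysome libraries, against 13.6 and 16.6 CPM in control polysome libraries, and overlapping levels in total RNA, with 12.2 and 13.7 CPM in *xpo-1* RNAi and 10.3 and 14.1 CPM in control. The part of these markers in the vitellogenin values was not tested. The vitellogenin genes are close copies, and reads that fit more than 1 of them may be split between them or lost.

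Among genes for proteins of the extracellular matrix, the basement membrane list also had a high median, while the cuticle collagen lists, given below, did not. The 16 basement membrane genes had a median of 0.57 (0.35 to 0.89), and 14 of 16 lay above the median of all genes, of which 5 had separated ratios. *let-2* and *emb-9* encode the collagen IV chains of the basement membrane. *let-2* had 420 and 319 CPM in *xpo-1* RNAi polysome libraries, against 165 and 212 CPM in control polysome libraries, and 296 and 352 CPM in *xpo-1* RNAi total RNA, against 341 and 718 CPM in control total RNA. The 2 control total libraries of *let-2* differed from each other about as much as the treatments did, and the value of 1.68 ± 0.44 (SE) ran from 1.08 to 2.08 relative to all genes with 1 library left out. *emb-9* had 209 and 159 CPM in *xpo-1* RNAi polysome libraries, against 100.4 and 139 CPM in control polysome libraries, and 161 and 198 CPM in *xpo-1* RNAi total RNA, against 214 and 430 CPM in control total RNA (value 1.46 ± 0.44 (SE)). *unc-52*, the perlecan of muscle attachment sites, had 55.6 and 42.7 CPM in *xpo-1* RNAi polysome libraries and 46.5 and 73.8 CPM in control polysome libraries, which overlap, but 31.8 and 41.9 CPM in *xpo-1* RNAi total RNA, against 96.2 and 225 CPM in control total RNA. The difference behind its value of 1.83 ± 0.52 (SE) thus lay in total RNA, and exons of *hhat-1* overlap it. Relative to all genes the basement membrane list had a median of -0.15 in polysome RNA and -0.69 in total RNA.

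Giant cytoskeletal and adhesion proteins (30 genes, median coding length 8340 nucleotides) had a median of 0.44 (0.33 to 0.56), with 11 genes separated toward higher and 0 toward lower. *vab-10*, the spectraplakin that ties muscle tension to the cuticle, and *let-805*, the transmembrane receptor of the same attachments, had values of 1.39 and 1.34, although exons of *Y47H9B.2* overlap *vab-10*. *hmr-1*, the cadherin of adherens junctions, had 191 and 181 CPM in *xpo-1* RNAi polysome libraries, against 88.0 and 66.4 CPM in control polysome libraries, and 303 and 294 CPM in *xpo-1* RNAi total RNA, against 293 and 241 CPM in control total RNA. The groups were well apart in polysome RNA, whereas in total RNA the nearest libraries were almost level (294 and 293 CPM). The value of *hmr-1* was 1.11 ± 0.26 (SE).

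Lipases, ABC transporters and nuclear hormone receptors were also at the high end. Lipases (19 genes) had a median of 0.61 (0.15 to 0.75), with 5 genes separated toward higher and 0 toward lower. Most were rare transcripts, with a median level of 4.44 CPM, and 6 of the 19 had a library at or under 3 counts. Only 5 had a mean of at least 10 CPM, and 0 of these were in the highest 5% of genes at that level. With at least 10 counts in every library the list median was 0.24, and with every count raised to at least 3 it was 0.59. *atgl-1*, the adipose triglyceride lipase that opens fat stores, had 99.2 and 108 CPM in *xpo-1* RNAi polysome libraries, against 54.7 and 39.1 CPM in control polysome libraries, and 139 and 154 CPM in *xpo-1* RNAi total RNA, against 138 and 111 CPM in control total RNA (value 0.91 ± 0.28 (SE)). ABC transporters, pumps driven by ATP, had a median of 0.37 (0.30 to 0.49) over 46 genes, of which 39 lay above the median of all genes. Within them 7 of the 8 *mrp* genes, which resemble multidrug resistance proteins, had separated ratios. *mrp-5*, the exporter of heme from the intestine, had 201 and 206 CPM in *xpo-1* RNAi polysome libraries, against 53.98 and 52.5 CPM in control polysome libraries, and 87.1 and 116.1 CPM in *xpo-1* RNAi total RNA, against 59.7 and 61.8 CPM in control total RNA. It was higher in both kinds of RNA and more so in polysome RNA (value 1.19 ± 0.24 (SE)).

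Nuclear hormone receptors, the largest family of transcription factors in the nematode, had 168 of 269 genes tested and a median of 0.39. Its range with 1 library left out, 0.30 to 0.41, was among the narrowest. Most of these genes were rare transcripts, with a median level of 3.31 CPM, and only 28 of the 168 had a mean of at least 10 CPM. With at least 10 counts in every library the list median was 0.38, and with every count raised to at least 3 it was 0.39. Ratios were separated toward higher in 56 genes and toward lower in 6. *nhr-48* had 50.05 and 47.1 CPM in *xpo-1* RNAi polysome libraries, against 20.7 and 17.6 CPM in control polysome libraries, while total RNA levels overlapped, with 31.6 and 32.4 CPM in *xpo-1* RNAi and 28.6 and 32.8 CPM in control (value 1.28 ± 0.24 (SE)). *nhr-114*, which protects the germline when diet lacks tryptophan or vitamin B12, had 8.20 and 7.76 CPM in *xpo-1* RNAi polysome libraries, against 30.3 and 38.3 CPM in control polysome libraries, and 7.11 and 9.65 CPM in *xpo-1* RNAi total RNA, against 72.99 and 121 CPM in control total RNA. Its positive value of 1.43 ± 0.37 (SE) thus belonged to a transcript that was lower in *xpo-1* RNAi in both kinds of RNA, and less so in polysome RNA. Cytochrome P450 genes, which oxidize lipids and foreign compounds, had a median of 0.33 over 59 genes that reached 0.00 without control total replicate 1.

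Among germline genes, the lists of germ granule genes and of oocyte RNA-binding proteins lay above the median of all genes, with wide ranges when single libraries were left out. The list of genes for DNA replication lay below it (-0.21 over 32 genes, -0.43 to 0.02 with 1 library left out), and eggshell genes were close to it (0.06 over 26 genes, -0.13 to 0.31). Germ granule and germline Argonaute genes (40 tested), the small RNA machinery of the germline, had a median of 0.48, with 15 separated ratios toward higher and 2 toward lower. Leaving out control polysome replicate 2 gave a median of 0.14, and leaving out control total replicate 2 gave 0.65. *wago-1*, an Argonaute that binds secondary small RNAs in germ granules, had 508 and 598 CPM in *xpo-1* RNAi polysome libraries, against 374 and 287 CPM in control polysome libraries, and 542 and 585 CPM in *xpo-1* RNAi total RNA, against 780 and 647 CPM in control total RNA. *wago-1* was higher in *xpo-1* RNAi in every polysome library and lower in every total library (value 1.08 ± 0.27 (SE)). *hrde-1*, the nuclear Argonaute of inherited silencing, and *ppw-1*, an Argonaute needed for germline RNAi, had values of 1.00 and 1.23, and *pgl-2*, a germ granule protein, had a value of -1.28. Oocyte and maternal RNA-binding proteins (33 genes) had a median of 0.36, which ran from 0.02 with control polysome replicate 2 left out to 0.76 with control polysome replicate 1 left out. *gld-4*, a cytoplasmic poly(A) polymerase, and *lin-41*, which holds oocytes in growth, had values of 1.30 and 1.23.

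Nuclear pore and transport genes, the partners of exportin 1, had a median of 0.26 over 40 genes that ran from -0.02 to 0.52. *npp-10*, a nucleoporin, had 273 and 253 CPM in *xpo-1* RNAi polysome libraries, against 169 and 100.9 CPM in control polysome libraries, and 287 and 313 CPM in *xpo-1* RNAi total RNA, against 371 and 350.0 CPM in control total RNA (value 1.23 ± 0.32 (SE)). *ran-1*, the GTPase that gives transport its direction, had 512 and 535 CPM in *xpo-1* RNAi polysome libraries, against 1011 and 914 CPM in control polysome libraries, and overlapping total RNA levels (value -0.84 ± 0.23 (SE)), with exons of *rib-2* overlapping the gene.

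Autophagy genes, which form the vesicles that deliver cargo to the lysosome, had a median of 0.17 over 27 genes. Of these, 10 were separated toward higher and 5 toward lower. The median fell to 0.004 without control polysome replicate 2 and rose to 0.36 without control total replicate 2. The list's median log2 ratios of polysome to total RNA, relative to all genes, overlapped between treatments. They were -0.07 to 0.19 in *xpo-1* RNAi and -0.71 to 0.19 in control. *hlh-30*, the TFEB homologue that drives autophagy and lysosome genes, had 104.5 and 94.5 CPM in *xpo-1* RNAi polysome libraries, against 56.8 and 39.2 CPM in control polysome libraries, and 57.2 and 63.4 CPM in *xpo-1* RNAi total RNA, against 68.9 and 86.6 CPM in control total RNA. *hlh-30* was higher in every *xpo-1* RNAi polysome library and lower in every *xpo-1* RNAi total library (value 1.42 ± 0.29 (SE)). *sqst-1*, the receptor for ubiquitin-tagged cargo, had 95.4 and 89.4 CPM in *xpo-1* RNAi polysome libraries, against 26.3 and 22.7 CPM in control polysome libraries, and 98.6 and 102 CPM in *xpo-1* RNAi total RNA, against 56.0 and 54.4 CPM in control total RNA (value 1.05 ± 0.22 (SE)). *lgg-1*, the GABARAP homologue that coats the vesicles, had a value of 0.27 ± 0.22 (SE), with 1020 and 1088 CPM in *xpo-1* RNAi polysome libraries against 681 and 646 CPM in control polysome libraries, and 702 and 616 CPM in *xpo-1* RNAi total RNA against 523 and 478 CPM in control total RNA. The chaperone list (54 genes) had a median of -0.11 and held members at both ends. *hsp-6*, the mitochondrial Hsp70, had 350 and 384 CPM in *xpo-1* RNAi polysome libraries, against 278 and 240 CPM in control polysome libraries, and 480 and 499 CPM in *xpo-1* RNAi total RNA, against 698 and 747 CPM in control total RNA (value 1.06 ± 0.23 (SE)). *hsp-1*, the constitutive cytosolic Hsp70, had a value of 0.62.

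**Figure D4:**
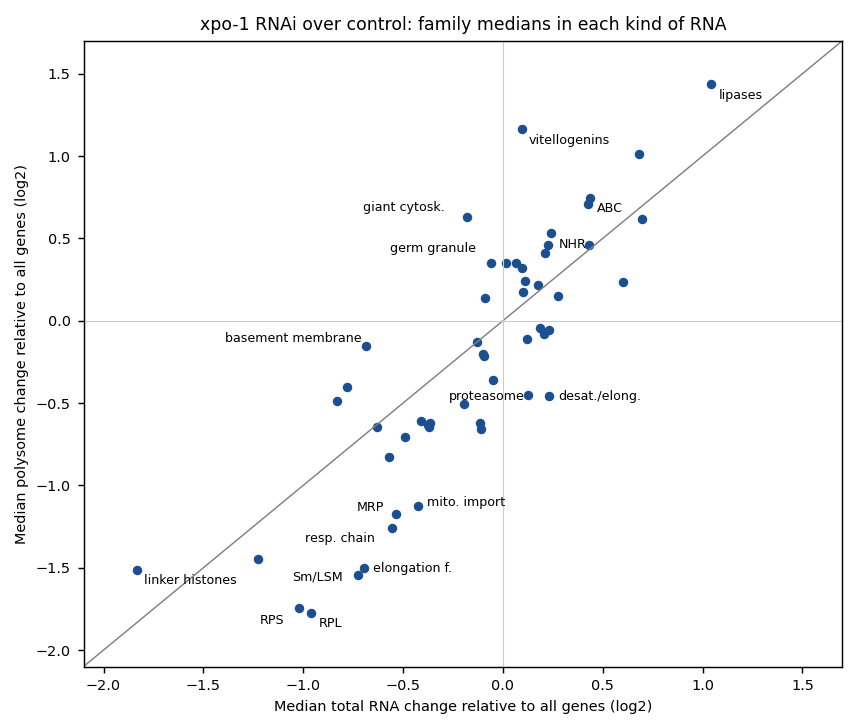
Family medians of the *xpo-1* RNAi over control change in polysome RNA (vertical axis) and in total RNA (horizontal axis), each relative to the median of all genes (log2), for 53 lists; the grey diagonal marks equal change, and the 2 sperm and 2 collagen lists with medians below the plotted range are left out. Ribosomal proteins of the large subunit (-1.77 in polysome RNA, -0.96 in total RNA) lie below the diagonal, and vitellogenins (1.16 and 0.09) lie above it.

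Some families with extreme medians did not keep their side. The 28 major sperm protein genes tested had a median of -0.95, but it ran from -2.35 without control total replicate 2 to 0.54 without control polysome replicate 2, and 0 of 28 had separated ratios. *msp-19* had 0.42 and 0.36 CPM in *xpo-1* RNAi polysome libraries, against 36.97 and 202 CPM in control polysome libraries, and 1.04 and 0.75 CPM in *xpo-1* RNAi total RNA, against 17.8 and 88.5 CPM in control total RNA. The difference between the control libraries numbered 1 and 2 was thus several-fold in both kinds of RNA, and the share of this difference in the family's value was not tested. Sperm genes outside that family had a median of -0.75 (-1.63 to 0.26), which was -0.52 with every count raised to a floor of 3 per library, since 26 of the 55 had a library at or under that floor. Cuticle collagens named *col* (130 tested) had a median of -0.14 (-1.02 to 0.38), or -0.24 at the floor, and body-shape, blister and furrow collagens a median of -0.01 (-0.84 to 0.32). These collagens were low in *xpo-1* RNAi in both kinds of RNA, with medians relative to all genes of -3.06 in polysome RNA and -2.81 in total RNA for those named *col*. The hedgehog-related list, a nematode group of secreted and patched-like proteins, had a median of 0.30 (-0.24 to 0.64).

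By a rule of size and repeatability, 12 single genes were named at each end. They had a mean of at least 10 CPM, an unadjusted p under 0.05, separated ratios, and the same side of the median of all genes in all 8 fits with a library left out, which 940 genes met at the high end and 982 at the low end. The 12 lowest values included the ribosomal genes *rpl-38*, *rla-1*, *rps-12* and *rpl-36.A* (-1.58), with *rpb-12* and *spp-17* described above. *tost-1*, of a complex that works in the piRNA pathway and in embryos, had 61.3 and 66.0 CPM in *xpo-1* RNAi polysome libraries, against 134 and 126.4 CPM in control polysome libraries, and 90.8 and 84.3 CPM in *xpo-1* RNAi total RNA, against 68.6 and 52.8 CPM in control total RNA (value -1.56 ± 0.24 (SE)). It was lower in polysome RNA and higher in total RNA in every *xpo-1* RNAi library. *C54D10.3*, *C24D10.6* and *T13F2.2* had values of -1.60, -1.57 and -1.55 and short coding regions of 516, 483 and 372 nucleotides. The list also held a pseudogene that the tables give only by its identifier, *WBGene00004677* (-2.03), and the noncoding gene *F31C3.14* (-1.71), which lie near each other on chromosome I.

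The 12 highest values were led by *gfi-1* (chromosome V, 6392541 to 6399921). It had 77.2 and 66.0 CPM in *xpo-1* RNAi polysome libraries, against 26.4 and 33.0 CPM in control polysome libraries, and 29.8 and 33.4 CPM in *xpo-1* RNAi total RNA, against 47.5 and 98.1 CPM in control total RNA. The groups stood apart in opposite directions, for a value of 2.47 ± 0.42 (SE) that ran from 1.90 to 2.87 relative to all genes with 1 library left out. *C09F9.2* (2.26) and *W06H8.6* (2.09) followed. *F28B4.3* had a value of 1.65 ± 0.23 (SE) with 136 and 134 CPM in *xpo-1* RNAi polysome libraries, against 32.7 and 39.1 CPM in control polysome libraries, and 116 and 101 CPM in *xpo-1* RNAi total RNA, against 86.2 and 94.3 CPM in control total RNA. *itx-1*, a protein of the neurexin and Caspr type, had 42.1 and 38.3 CPM in *xpo-1* RNAi polysome libraries, against 8.37 and 10.1 CPM in control polysome libraries, and 23.2 and 30.9 CPM in *xpo-1* RNAi total RNA, against 15.9 and 21.4 CPM in control total RNA (value 1.58 ± 0.31 (SE)). Regulators of RNA and of developmental timing or sex were also among the 12, with *mbl-1* (1.62), the muscleblind splicing factor, *lin-66* (1.59), a heterochronic gene, and *sea-2* (1.69), a zinc finger protein of the pathway that sets the sex of the animal. The rest were *unc-52*, *let-2*, *R193.2* (1.68) and *Y39B6A.1* (1.57).

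The families at the 2 ends also differed in coding length, which the ranking did not use. Among protein-coding genes with a mean of at least 1 CPM, the median value relative to all genes was -0.34 in the shortest of 10 groups of about equal size (coding regions of 66 to 396 nucleotides) and 0.44 in the longest group (2709 nucleotides and more), and it was higher in each group than in the next shorter group. Every *xpo-1* RNAi ratio was below every control ratio in 29.6% of the shortest and 2.51% of the longest, and above in 6.71% of the shortest and 39.0% of the longest. Both kinds of RNA sloped in the same direction, polysome RNA more steeply. The median polysome change was -0.53 in the shortest group and 0.58 in the longest, whereas the median total RNA change was -0.16 in the shortest and 0.17 in the longest.

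Over 7270 protein-coding genes with a mean of at least 10 CPM, Spearman's rho of coding length with the value was 0.529, and it lay between 0.408 and 0.581 with 1 library left out. The 5900 of these genes that belong to none of the lists gave 0.507. Genes are not independent replicates, and all share the same 8 libraries. Coding length went with higher polysome over total ratios in all 4 *xpo-1* RNAi library pairs (rho 0.058 to 0.288) and with lower ratios in all 4 control pairs (-0.279 to -0.118). It also went with differences between replicates of 1 group, with rho of 0.511 for *xpo-1* RNAi total replicate 2 over replicate 1, -0.324 for *xpo-1* RNAi polysome, -0.387 for control polysome and -0.110 for control total RNA. The part of such differences between libraries in the slope across genes was not tested.

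**Figure D5:**
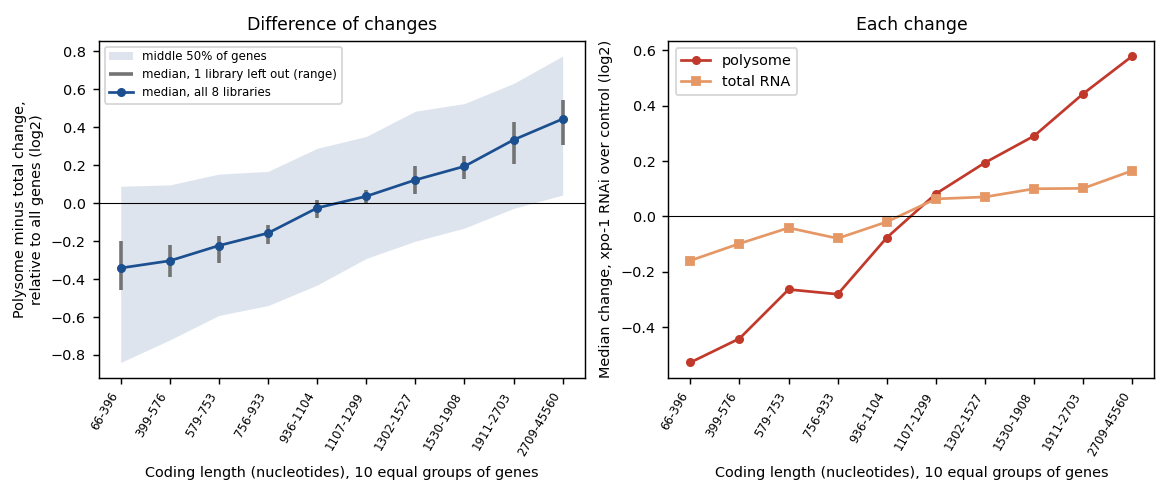
Left, median of the polysome change minus the total RNA change relative to all genes (log2, vertical axis) in 10 groups of protein-coding genes ordered by coding length (nucleotides, horizontal axis), with the middle 50% of genes shaded and the range of the median with 1 library left out as bars; it runs between -0.34 in the shortest and 0.44 in the longest group. Right, the median *xpo-1* RNAi over control change of the same groups in polysome RNA (circles) and total RNA (squares), where polysome RNA runs between -0.53 and 0.58.

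Some families stood apart from genes of like length. In the fifth of genes with the shortest coding regions and a mean of at least 10 CPM (66 to 615 nucleotides) the median relative to all genes was -0.44, compared with -0.77 for large-subunit and -0.69 for small-subunit ribosomal proteins, whose median coding lengths were 432 and 450 nucleotides. The mitochondrial import list had a median of -1.02 at 420 nucleotides. Neuropeptide genes are also short (285 nucleotides) but less abundant (median 3.33 CPM, with 25 of 117 at a mean of at least 10 CPM). Their median was 0.17 (0.07 to 0.30). Of them 23 (19.7%) were separated toward higher and 6 (5.13%) toward lower, against backgrounds of 16.4% and 15.5%. The share toward higher was thus near that of all genes. In the fifth with the longest coding regions the median was 0.45, compared with 1.10 for vitellogenins (4824 nucleotides) and 0.57 for basement membrane genes (4826 nucleotides). Desaturases and elongases (944 nucleotides) and nuclear hormone receptors (1244 nucleotides) had coding regions close to the median of all genes, 1065 nucleotides, and lay at opposite ends. These differences between families and genes of like length were not tested.

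The 366 genes in the lowest 5% of those with a mean of at least 10 CPM had a median coding length of 480 nucleotides, and 354 of them kept their side in all 8 fits. Their median polysome change was -1.35 and their median total RNA change -0.20. The 366 in the highest 5% had a median coding length of 2535 nucleotides, and all 366 kept their side. Their median changes were 0.89 in polysome RNA and -0.24 in total RNA. Of all 7329 genes with a mean of at least 10 CPM, 4932 kept their side. Both ends were picked by the fit of all 8 libraries, and each fit with a library left out reuses the rest of them. Keeping a side at the ends is thus largely set by that choice and is no separate evidence of repeatability. Of all 14900 genes, 409 were higher in every *xpo-1* RNAi polysome library and lower in every *xpo-1* RNAi total library, and 380 showed the reverse.

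Monosome RNA, a fraction of the same gradients with a single *xpo-1* RNAi library and 2 control libraries, was set beside these families as values without a test. Relative to all genes the large-subunit ribosomal proteins had a median change of 0.25 in monosome RNA, next to -1.77 in polysome RNA and -0.96 in total RNA. Mitochondrial import genes had 0.25 in monosome RNA and -1.12 in polysome RNA, Sm and LSM genes 0.24 and -1.54, and proteasome genes 0.72 and -0.45. Vitellogenins were at 1.87 in monosome RNA and 1.16 in polysome RNA. Giant cytoskeletal and adhesion genes had -0.16 in monosome RNA and 0.63 in polysome RNA, and nuclear hormone receptors -0.02 and 0.53. Nuclear genes of the respiratory chain were at 0.13 in monosome RNA and -1.26 in polysome RNA, and mitochondrial ribosomal proteins at -0.17 and -1.18.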

How the data were processed

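Per the labels, 8 polyadenylated RNA libraries were used, 2 for each treatment and kind of RNA. The authors deposited raw counts per gene on WBcel235; the submitters' processing notes name Trimmomatic, STAR, featureCounts and Subread, and the use of strand was not given in the sources used here. The 3 tables of normalized values were not used. Genes with at least 10 counts in at least 2 of the 8 libraries entered edgeR 4.0.16 under R 4.3.3 (quasi-likelihood F test), with TMM scaling, 1 mean for each of the 4 groups, the polysome change minus the total RNA change as contrast, and Benjamini-Hochberg adjustment over 14900 genes. Total RNA and polysome libraries came from shared lysates but were fitted as independent. The study's methods name biological duplicates for the monosome and polysome fractions. Nothing in the labels says that replicates are separate cultures, so p-values measure the spread between these libraries. Replicates were distinct libraries (chi-square of their counts per degree of freedom 14.1 to 48.6). Displayed levels are TMM-scaled CPM, ratios use log2(CPM + 0.5), and marker sums use CPM of the library total. Lists follow gene symbols, coding lengths the longest coding transcript in Ensembl. In each list the most abundant members and those farthest from the median of all genes could be named. The gene lists, classes and rules were chosen with earlier results of these data known. Alternatives were other filters, scalings, limma-voom 3.58.1, DESeq2 1.42.0, a replicate block and each library left out. The fit was also run on simulated data, in which all libraries were drawn independently. That run does not bear on libraries from shared lysates.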

Additional observations from a re-analysis of the deposited data

Results flagged for a closer look

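Among the genes named in the report, 27 stood apart in opposite directions in the 2 kinds of RNA, so that every *xpo-1* RNAi library of 1 kind lay above every control library and every *xpo-1* RNAi library of the other kind lay below. Across all 14900 genes 409 showed this with polysome RNA higher and 380 with polysome RNA lower. Many genes were named for values far from the median of all genes, so the 27 cannot be read against these counts. The gap between treatments could be small, and for *elo-1* the nearest libraries of total RNA were almost level. The difference was tested as the interaction in edgeR, and with the count filter of the report no gene passed (adjusted p 0.0972 to 0.233 for these 27), while other filters and DESeq2 called genes in both directions. With polysome RNA higher and total RNA lower, the values were 2.47 for *gfi-1*, 2.26 for *C09F9.2*, 1.69 for *sea-2*, 1.62 for *mbl-1*, 1.59 for *lin-66* and 1.57 for *Y39B6A.1*. They were 1.46 for *emb-9*, 1.42 for *hlh-30*, 1.39 for *vab-10*, 1.34 for *let-805*, 1.30 for *gld-4*, 1.23 each for *lin-41*, *npp-10*, *ppw-1* and *vit-1*, 1.08 for *wago-1*, 1.06 for *hsp-6*, 1.01 for *ama-1* and 1.00 for *hrde-1*. With polysome RNA lower and total RNA higher, they were -1.57 for *C24D10.6*, -1.56 for *tost-1*, -1.55 for *T13F2.2*, -1.48 for *mrpl-18*, -1.41 for *rbx-1*, -1.23 for *elo-1*, -0.82 for *spp-5* and -0.72 for *fat-1*.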

How the results depend on the processing

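The number of genes called was the result that depended most on the processing. It stayed at 0 in both directions with scaling by library totals, DESeq2 size factors in edgeR, TMM within each kind of RNA, and limma-voom. Without a count filter it was 275 with a higher and 301 with a lower value, with at least 10 counts in every library 303 and 120, and with DESeq2 282 and 383, and 310 genes were shared by these 3 settings. With 1 library left out it lay between 0 and 458 for higher and between 0 and 264 for lower values, and the upper ends came without control polysome replicate 1. Among alternatives chosen after seeing the data, leaving out both control libraries numbered 1 gave 1033 and 717 calls, and leaving out both numbered 2 gave 104 and 192. The cause was not tested.

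With the replicate number as a block within each treatment, 985 genes were called with a higher and 976 with a lower value. Deviations of same-numbered polysome and total RNA libraries correlated at -0.445 in *xpo-1* RNAi and 0.788 in control over 7329 genes, so the numbers were not taken as pairs. With the *xpo-1* RNAi numbers crossed, the block gave 1547 and 1439 calls.

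The 24 genes named at the ends were chosen for keeping their side of the median of all genes with each library left out, so their stability there is fixed by the rule. Of the other single genes with a value printed in the report, only *rpl-4* changed side. Its values relative to all genes were -0.345 to 0.086 with 1 library left out and 0.101 without both control libraries numbered 1. Genes named by their levels alone, such as the markers *dpy-7* and *spe-9*, are not covered by this statement. Of the 57 list medians, 37 kept their side in all 16 alternatives chosen at the start and 53 in the 8 of these that left out no library. The strict filter moved the median of all genes to 0.20, and leaving out 1 library moved it to at most 0.29. Below 1 CPM (2564 genes) the values had an SD of 1.33, compared with 0.569 for genes of at least 10 CPM, so families of rare transcripts are less certain.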

Other observations

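Several smaller classes of genes, grouped by name stem alone, lay near the ends of the ranking. At the high end, the amino acid transporter class *aat* (9 tested) had a median of 0.54 relative to all genes and ran from 0.47 to 0.70 with 1 library left out. The Rab GTPase-activating class *tbc* (17 tested) had a median of 0.51 (0.34 to 0.61), with 10 genes separated toward higher and 0 toward lower. The ion-pumping ATPase class *catp* (8 tested) had a median of 0.50 (0.37 to 0.70), the patched-related class *ptr* (23 tested) 0.51 (0.19 to 0.80), and the acyl-CoA synthetase class *acs* (20 tested) 0.45 (0.20 to 0.68). At the low end the cyclophilin class *cyn*, prolyl isomerases (16 tested), had a median of -0.80 (-0.97 to -0.51), with 7 genes separated toward lower and 0 toward higher. The lowest medians of all classes were those of *nspb* (-1.53) and *nspd* (-1.32), groups of 11 and 9 tested genes of which 0 had separated ratios. The *nspd* median ran from -2.69 to 0.17 with 1 library left out. All 11 *nspb* genes and 5 of the 9 *nspd* genes had a library at or under the floor of 3 counts, and 0 *nspb* genes had a mean of at least 10 CPM. With every count raised to that floor the medians were -1.23 for *nspb* and -1.39 for *nspd*.

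Genes of the X chromosome (2106 tested) had a median value of 0.22 relative to all genes, and those of the autosomes had medians between -0.07 and 0.02. On X, 25.4% of genes had ratios separated toward higher and 6.03% toward lower in *xpo-1* RNAi. The vitellogenins *vit-1*, *vit-2* and *vit-5* and the single genes *let-2*, *F28B4.3*, *R193.2* and *mbl-1* lie on X, and X-linked genes had a median level of 5.31 CPM, compared with 9.43 CPM for all genes tested.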
